A study of Homo sapiens with 6 samples.

Results

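This account concerns 9 genes of HLA class I antigen presentation: the heavy chain genes HLA-B, HLA-C, HLA-E and HLA-F, the light chain gene B2M, the peptide loading genes TAP1, TAP2 and TAPBP, and the activator gene NLRC5. They were taken from the count table by gene symbol. All 9 are among its 16934 genes, and all 9 passed the filter on low counts, as did 13930 genes in all. RNA was sequenced from A375, an established human melanoma line with an activating BRAF mutation, after editing with the Alt-R CRISPR-Cas9 system. The control group had received a non-targeting sgRNA and the other group an sgRNA against POLK, the gene of the error-prone DNA polymerase kappa, and both grew in the same medium with serum. Each group held 3 libraries, with total counts of 42852645 to 56891905. Whether the 3 libraries are independent cultures or repeats of 1 edited population is not stated. Every p-value here therefore weighs the group difference against a library spread that may be technical, and if each group is 1 population, the sgRNA and the population cannot be told apart.

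POLK, the targeted gene, had 1004, 1312 and 1074 counts in the control libraries and 1095, 803 and 889 in the POLK sgRNA libraries, or 22.4 to 24 and 17.2 to 19.2 counts per 1000000 (CPM) after scaling to depth. Its level with the POLK sgRNA was 78% of the control level, without overlap.

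Class I molecules display peptides from a cell's own proteins to cytotoxic T cells. A polymorphic heavy chain pairs with beta-2-microglobulin in the endoplasmic reticulum, where the transporter formed by TAP1 and TAP2 delivers peptides and tapasin, the product of TAPBP, holds the empty molecule beside the transporter until a peptide is bound. NLRC5 acts at class I promoters together with RFX and NF-Y proteins bound at the X and Y boxes, and interferons and NF-kB raise the same genes through elements further upstream. Many tumours, melanoma among them, lower this pathway and so become less visible to T cells.

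The upstream sequences of HLA-B and HLA-C, which rose most, and of B2M, which did not pass the test, are given first, since heavy and light chain genes are known to share promoter elements. HLA-E and NLRC5 had no entry in the promoter table. Each is written 5′ to 3′ on the gene's own strand, from 200 to 41 bases before the RefSeq start (GRCh38.p14). HLA-B lies at chr6:31357220-31357379 (minus strand), HLA-C at chr6:31272133-31272292 (minus strand) and B2M at chr15:44711317-44711476 (plus strand). Capitals mark matches to an interferon-stimulated response element core (GAAA, any 2 bases, then GAAA), to its shorter form (GAA, any 2 bases, then GAAA), to an NF-kB motif (GGG, any 2 bases, TT, any base, then CC), to the core of the cyclic AMP response element (TGACG) and to the CCAAT box. Each was sought on both strands, and matches may overlap.
HLA-B: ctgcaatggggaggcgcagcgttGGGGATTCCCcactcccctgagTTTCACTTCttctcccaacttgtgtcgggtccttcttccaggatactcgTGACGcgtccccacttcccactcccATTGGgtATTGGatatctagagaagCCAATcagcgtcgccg
HLA-C: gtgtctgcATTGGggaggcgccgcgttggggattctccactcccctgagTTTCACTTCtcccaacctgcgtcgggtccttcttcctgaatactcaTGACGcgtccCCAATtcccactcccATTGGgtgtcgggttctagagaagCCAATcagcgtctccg
B2M: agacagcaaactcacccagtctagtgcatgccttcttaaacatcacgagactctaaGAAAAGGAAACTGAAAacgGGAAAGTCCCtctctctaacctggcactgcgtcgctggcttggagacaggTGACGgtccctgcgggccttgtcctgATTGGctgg

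Over the 200 bases before the start, HLA-B and HLA-C were identical at 87.7% of aligned positions. HLA-F matched HLA-B at 80.8% and HLA-C at 78.7%, while B2M matched HLA-B at 42.3%. HLA-B held the NF-kB motif 177 to 168 bases before the start and the shorter interferon motif 155 to 147 bases before it, and HLA-C held the latter motif at 151 to 143 bases. B2M held overlapping matches to the full interferon core from 144 to 129 bases, an NF-kB motif, a TGACG core and a CCAAT box. Among 35114 RefSeq promoters, 3.02% held the full interferon core in the 250 bases before the start, 6.56% the shorter form, 5.07% the NF-kB motif, 21.2% TGACG and 32% CCAAT. The motifs were chosen after the sequences had been seen, and a match in letters does not show binding.

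For the other members in the promoter table, only the interferon element is shown, because their upstream windows overlap annotated exons. It is given with short flanks and its matches in capitals, from HLA-F (chr6:29723269-29723296, plus strand), TAP1 (chr6:32853817-32853844, minus strand), TAP2 (chr6:32838782-32838808, minus strand) and TAPBP (chr6:33314079-33314104, minus strand).
HLA-F: tccccagagTTTCTCTTTCtctcccaac
TAP1: ggccgcTTTCGATTTCGCTTTCccctaa
TAP2: gctgggGAAGCGAAAGCGAAAgctgcc
TAPBP: ttggagGAAAGTGAAAGTGAAAggag
All 7 members with an entry in the promoter table held a match to 1 or both of the 2 interferon patterns, including B2M, whose transcript did not pass the test. Because these patterns were chosen after the sequences had been seen, this count is a description and not a test. Members with such a match covered log2 fold changes from −0.03 for B2M to 0.87 for HLA-B.

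With the POLK sgRNA, 7 of the 9 genes rose, 1 fell and 1 did not pass the test. HLA-B and HLA-C rose most, TAP1, HLA-E and HLA-F rose less, and TAP2 and TAPBP rose by a small margin, while B2M stayed within the spread between libraries and NLRC5 was slightly lower. The median log2 fold change of the 9 genes was 0.39, against 0.01 over all genes tested. Differences between these groups were common across the transcriptome: 64.3% of genes tested passed at an adjusted p under 0.05 (edgeR, quasi-likelihood F test, Benjamini-Hochberg adjustment). Of all genes tested, 32.8% were called higher and 31.6% lower. The 7 members that rose had no overlap between the groups, as had NLRC5 in the other direction, where 34.6% of all genes tested were higher and 33.1% lower without overlap.

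**Figure D1:**
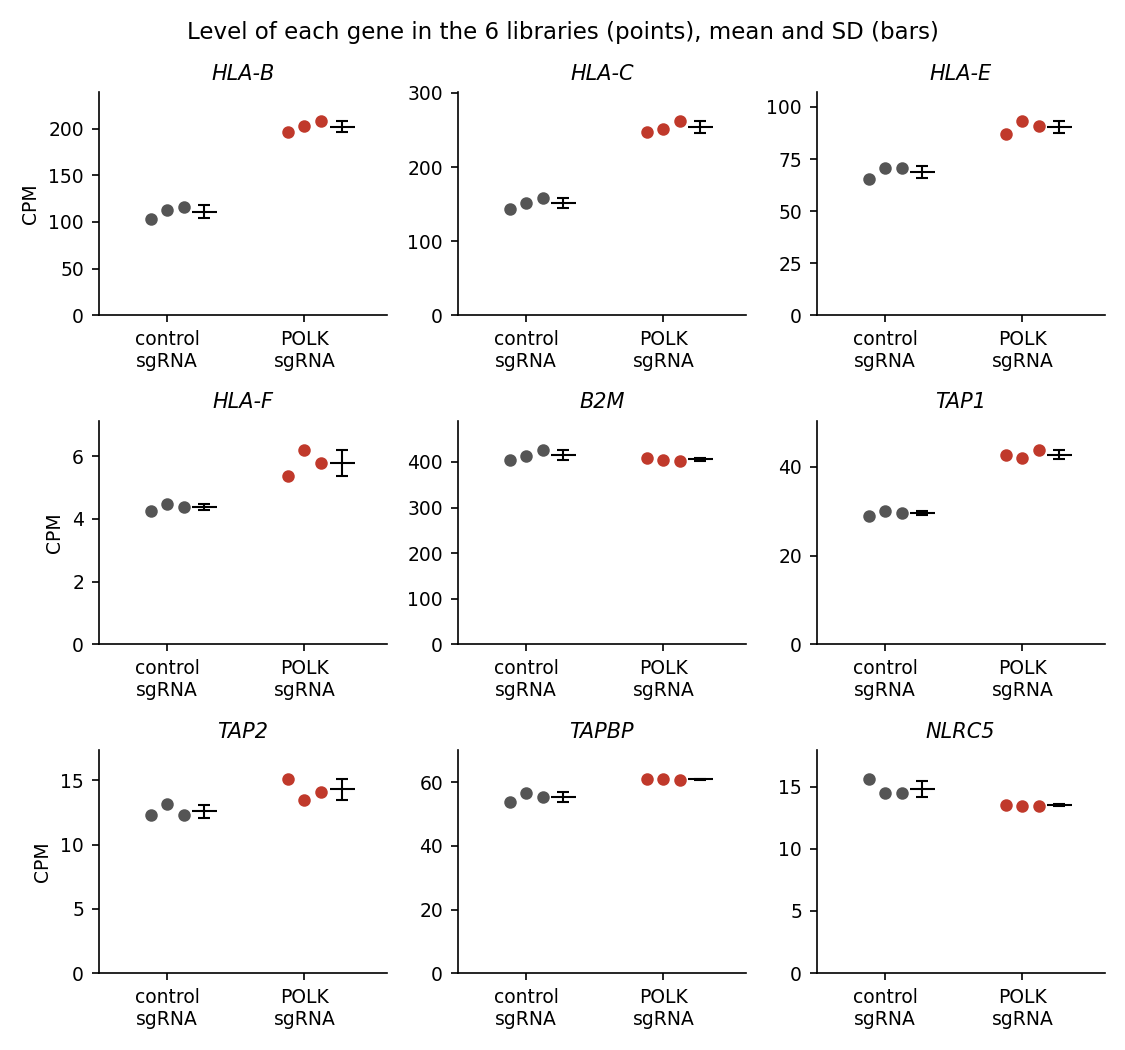
Level of each of the 9 genes in CPM, in 3 control sgRNA libraries (grey) and 3 POLK sgRNA libraries (red), with the mean and SD beside the points; each axis starts at 0. HLA-B, at 103 to 116 and 196 to 208 CPM, and HLA-C show the widest gaps between groups, while the B2M points overlap.

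HLA-B (ENSG00000234745, chromosome 6, 31269491 to 31357188 on the minus strand, GRCh38) encodes a classical heavy chain, which presents peptides to CD8+ T cells. Its level was 103, 113 and 116 CPM in the control libraries and 196, 203 and 208 CPM in the POLK sgRNA libraries. Every POLK sgRNA library lay well above every control library. The means were 111 ± 7.04 and 202 ± 5.95 CPM (SD, n = 3), a log2 fold change of 0.87 (SE 0.04, 95% interval 0.78 to 0.96; edgeR adjusted p = 9.9e-10). Among all genes tested, 4.64% had a larger log2 fold change.

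HLA-C (ENSG00000204525, chromosome 6, 31268749 to 31272130, minus strand) encodes the other classical heavy chain of the set, which is also a ligand of inhibitory receptors on natural killer cells. Control libraries held 144, 152 and 158 CPM and POLK sgRNA libraries 247, 252 and 262 CPM. The groups were again far apart relative to their spread. The log2 fold change was 0.75 (SE 0.03, 0.69 to 0.81; edgeR adjusted p = 1.3e-17).

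HLA-B and HLA-C did not rise by quite the same factor. Per kilobase of transcript, the ratio of HLA-B to HLA-C was 0.706, 0.742 and 0.731 in control libraries and 0.786, 0.797 and 0.787 in POLK sgRNA libraries. All 3 POLK sgRNA values exceeded all 3 control values, which in an exact permutation test (two-sided) gives p = 0.1, the smallest that 3 against 3 libraries allow. Ratios were tested for 4 pairs of members and for B2M over the 4 summed heavy chain genes. Each gave the same exact permutation p of 0.1, which was not adjusted for the number of ratios.

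HLA-E (ENSG00000204592, chromosome 6, 30489467 to 30494205, plus strand) encodes a nonclassical heavy chain that presents leader peptides of other class I chains to NKG2A receptors. It was at 65.5, 70.6 and 70.7 CPM in control libraries and at 87.1, 93.2 and 90.8 CPM in POLK sgRNA libraries. The lowest POLK sgRNA library stood above the highest control, and the log2 fold change was 0.39 (SE 0.03, 0.32 to 0.45; edgeR adjusted p = 3.5e-12). HLA-E thus rose by a smaller factor than HLA-B: the ratio of HLA-B to HLA-E per kilobase went from 2.7 ± 0.0621 to 3.76 ± 0.0988 (SD, n = 3), without overlap (exact permutation p = 0.1, the smallest possible).

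HLA-F (ENSG00000204642, chromosome 6, 29722775 to 29738528, plus strand), a nonclassical gene whose product is found on activated lymphocytes and stressed cells, was the weakest of the heavy chains. It had 183, 245 and 210 counts in the control libraries and 306, 290 and 284 in the POLK sgRNA libraries, or 4.27 to 4.49 and 5.36 to 6.2 CPM. The fold change, 0.39 on the log2 scale, equalled that of HLA-E but with a wider interval of 0.22 to 0.57 (SE 0.09; edgeR adjusted p = 0.00014). In GENCODE 29, exons on the opposite strand overlap several members, and the kit did not mark strand, so reads of such a gene and its antisense partner cannot be told apart. The pseudogene AL645939.1 covers 31.7% of the principal HLA-F transcript and HLA-F-AS1 15.7%, the pseudogene AL671883.2 covers 24.0% of HLA-B, and PSMB8-AS1 covers 15.4% of TAP1.

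Summed, the 4 heavy chain genes took 317, 340 and 349 CPM in control libraries and 536, 554 and 567 CPM in POLK sgRNA libraries. HLA-B and HLA-C make up most of that sum in every library.

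B2M (ENSG00000166710, chromosome 15, 44711487 to 44718877, plus strand) encodes the light chain shared by all class I molecules and did not follow the heavy chains. Its level was 405, 414 and 426 CPM in control and 409, 405 and 403 CPM in POLK sgRNA libraries, and the groups overlapped. The log2 fold change was −0.03 (SE 0.02) with a 95% interval of −0.08 to 0.01 (edgeR adjusted p = 0.2). On leaving out control library 1, B2M was called lower, by 0.06 on the log2 scale (adjusted p = 0.034), and in the other leave-one-out fits it did not pass. In bulk RNA such as this, a change in the number of expressing cells and a change in RNA per cell cannot be told apart for any gene named here.

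The balance of light chain to heavy chain transcripts therefore moved. Per kilobase, B2M exceeded the 4 heavy chain genes together in control cells, with ratios of 1.26, 1.2 and 1.21, and fell short of them in POLK sgRNA cells, with 0.739, 0.709 and 0.688. Expressed as shares of the per-kilobase level of these 5 genes, B2M went from 55 ± 0.686% to 41.6 ± 0.873% (SD, n = 3), HLA-B from 16.1 ± 0.486% to 22.8 ± 0.363% and HLA-C from 22.2 ± 0.182% to 28.9 ± 0.478%. HLA-E held 5.99 ± 0.106% and 6.07 ± 0.171%, and HLA-F 0.605 ± 0.018% and 0.618 ± 0.0415%, where the groups overlapped.

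**Figure D2:**
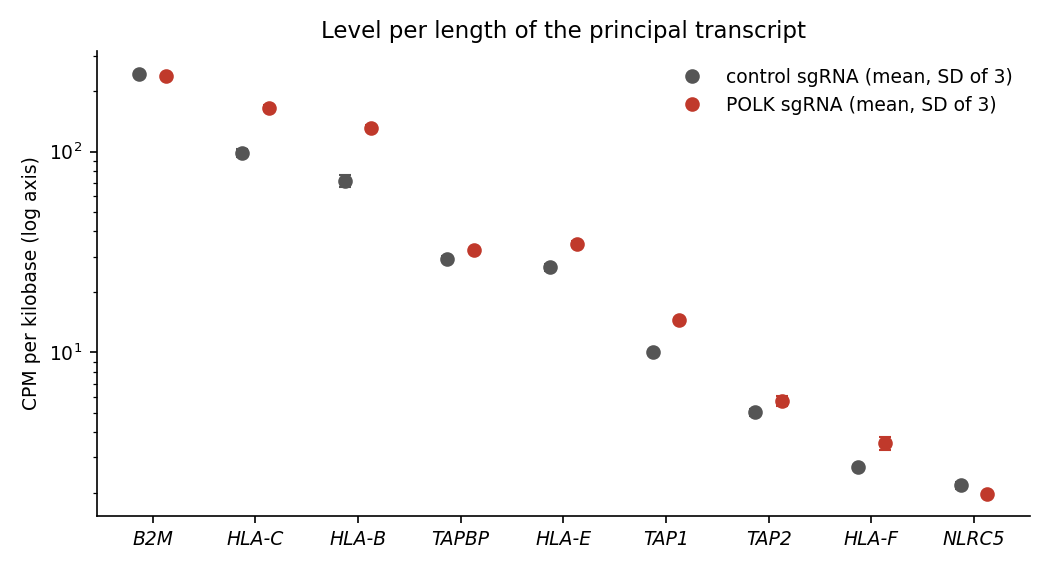
Mean level per kilobase of the principal transcript (log axis, CPM per kilobase) with SD over 3 libraries, control sgRNA in grey and POLK sgRNA in red. B2M lies highest at 243 and 238, NLRC5 lowest at 2.18 and 1.97, and TAPBP and HLA-E change places.

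Levels per kilobase ranked the members in the order B2M, HLA-C, HLA-B, TAPBP, HLA-E, TAP1, TAP2, HLA-F and NLRC5 in control cells. The library values of neighbours in this order did not overlap. With the POLK sgRNA the order was the same except that HLA-E (33.5 to 35.8 CPM per kilobase) passed TAPBP (32.2 to 32.3), where in control cells TAPBP (28.4 to 30.1) had stood above HLA-E (25.2 to 27.2). Lengths are those of 1 GENCODE 29 transcript a gene, such as 1.705 kilobases for B2M and 6.822 for NLRC5. Distances between genes depend on that choice, while the fold change of a single gene between groups does not. The shares of B2M and the heavy chain genes depend on it in both groups. So does whether B2M exceeds the summed heavy chain genes.

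Within peptide loading, TAP1 moved furthest. TAP1 (ENSG00000168394, chromosome 6, 32845209 to 32853978, minus strand) encodes 1 chain of the peptide transporter. It was at 29, 30.1 and 29.6 CPM in control and 42.7, 42 and 43.8 CPM in POLK sgRNA libraries, with little spread inside either group. The log2 fold change was 0.53 (SE 0.04, 0.46 to 0.61; edgeR adjusted p = 1.1e-14).

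TAP2 (ENSG00000204267, chromosome 6, 32821833 to 32838780, minus strand) encodes the partner chain, and its difference was smaller. Control libraries held 12.3, 13.2 and 12.3 CPM and POLK sgRNA libraries 15.1, 13.5 and 14.1 CPM, so that the groups were separate by a narrow margin. The log2 fold change was 0.18 (SE 0.06, 0.06 to 0.29; edgeR adjusted p = 0.0068), and the call was lost on leaving out POLK sgRNA library 1 (0.13, adjusted p = 0.063). The TAP1 to TAP2 ratio per kilobase rose from 1.93 to 2.02 in control libraries to 2.38 to 2.62 (exact permutation p = 0.1, the smallest possible). TAP2 is the least certain of the levels: 80.2% of the 50-base stretches of its principal transcript also occur in AL669918.1, an annotated read-through gene, and a counter that drops shared reads would lose most of them.

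TAPBP (ENSG00000231925, chromosome 6, 33299694 to 33314387, minus strand), the tapasin gene, was at 53.7, 56.7 and 55.5 CPM in control and 61, 60.9 and 60.8 CPM in POLK sgRNA libraries. The POLK sgRNA values were nearly identical to each other and all above the controls. The log2 fold change was 0.14 (SE 0.03, 0.07 to 0.20; edgeR adjusted p = 0.00026), a rise of 1.1-fold.

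NLRC5 (ENSG00000140853, chromosome 16, 56989485 to 57083531, plus strand), the activator of class I promoters, moved against the genes it is known to activate. It was at 15.6, 14.5 and 14.5 CPM in control and 13.5, 13.4 and 13.4 CPM in POLK sgRNA libraries. Control library 1 stood apart from the other 2 controls, and no POLK sgRNA library reached the lowest control. The log2 fold change was −0.14 (SE 0.05, −0.25 to −0.03; edgeR adjusted p = 0.023). Without control library 1 this call was lost (−0.11, edgeR adjusted p = 0.099). It was also lost without the second POLK sgRNA library (−0.14, edgeR adjusted p = 0.054) and in DESeq2 (−0.15, adjusted p = 0.056).

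Heavy chain genes are close relatives, so shared sequence bears on their counts. Of the 50-base stretches in their principal reference transcripts, 2.54% for HLA-B, 6.79% for HLA-C, 5.13% for HLA-E and 1.7% for HLA-F also occur in a transcript of another gene. None did for B2M, TAPBP or NLRC5. The alleles of A375 were not examined here, and reads of an allele that differs from the reference may align less often or to a relative, so the heavy chain levels are uncertain in absolute terms. GENCODE 29 also draws the HLA-B gene across HLA-C, with 33 exon bases shared.

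**Figure D3:**
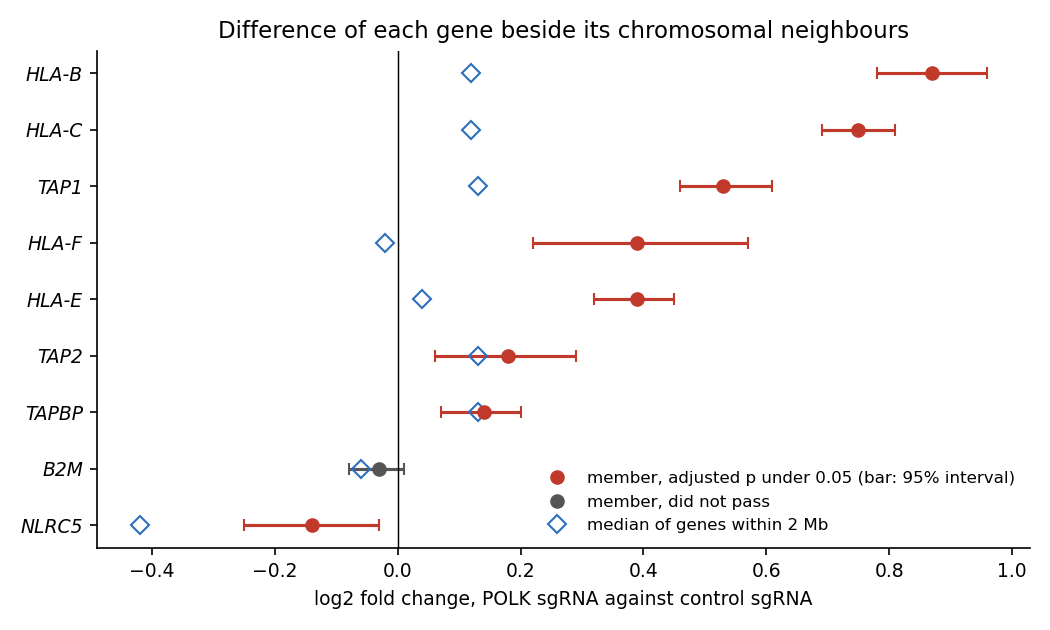
Log2 fold change of each member with its 95% interval (circles) and the median log2 fold change of other genes within 2 Mb of its start (diamonds). HLA-B at 0.87 and HLA-C at 0.75 lie far right of their neighbours' median of 0.12, TAP2 and TAPBP lie on theirs, and NLRC5 at −0.14 lies right of its neighbours' −0.42.

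The members were also set beside their chromosomal neighbours, meaning tested genes other than members that start within 2 Mb and average 1 CPM or more. Around HLA-B there were 90 such genes with a median log2 fold change of 0.12, of which 6 had a larger value than HLA-B. Among the 85 neighbours of HLA-C, 7 exceeded it. HLA-E and HLA-F lay 0.34 and 0.41 above their neighbours' medians of 0.04 and −0.02, and TAP1 lay 0.40 above a median of 0.13.

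TAP2 and TAPBP did not stand out in this way. They lay 0.05 and 0.01 above the median of 0.13 around them, and 33 and 39 of their 83 neighbours had larger values. B2M, with −0.03, sat beside a median of −0.06 over 27 neighbours. NLRC5 lies in a lowered stretch of chromosome 16, where 32 of 39 neighbours fell, 3 rose and the median was −0.42, so NLRC5 was 0.28 above its surroundings. What part the surrounding shifts have in the members' differences was not tested.

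**Figure D4:**
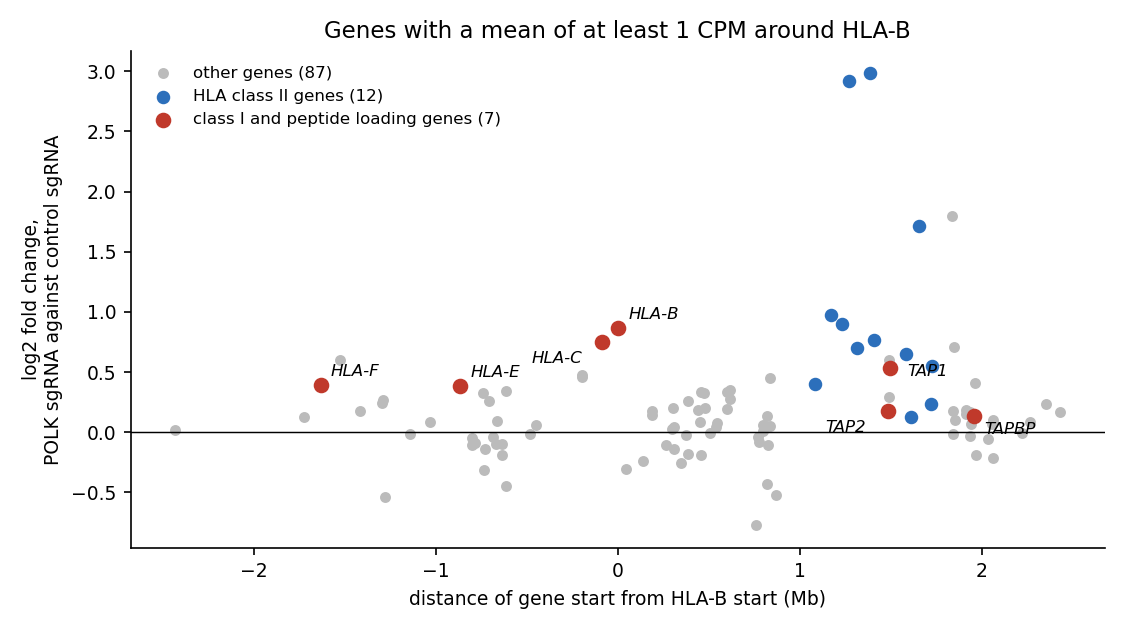
Log2 fold change of genes that average 1 CPM or more against the distance of their start from that of HLA-B (Mb), with class I and peptide loading members in red, HLA class II genes in blue and the 87 other genes in grey. The other genes scatter about a median of 0.07, and all 12 class II genes lie above 0.

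Within 2.5 Mb of HLA-B, 87 genes that were neither members nor class II had a median log2 fold change of 0.07, with 35 higher and 17 lower. The 12 HLA class II genes there, which present peptides to CD4+ T cells, all rose, by 0.12 to 2.98.

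**Figure D5:**
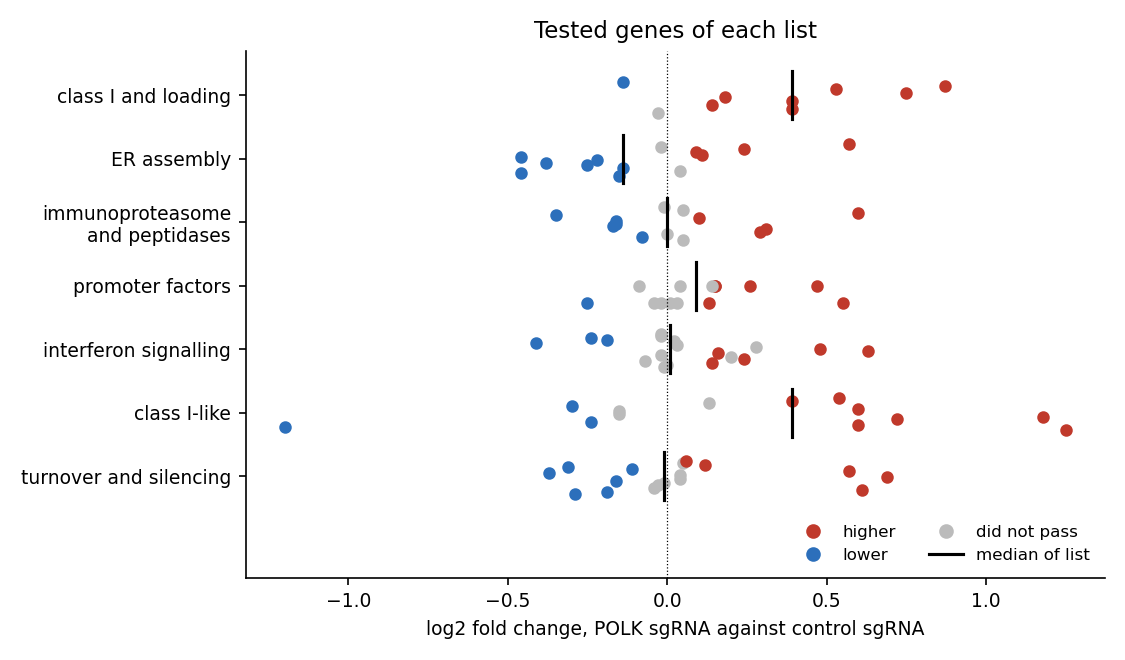
Log2 fold change of every tested gene in the 9-gene set and in 6 lists of related genes, coloured by the edgeR call (red higher, blue lower, grey did not pass), with the median of each list as a bar. The set and the class I-like list share the highest median, 0.39, and ER assembly has the lowest, −0.14.

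Among genes that fold class I molecules and trim their peptides in the endoplasmic reticulum, several chaperones fell and no listed trimming peptidase did. Of 13 genes tested, 7 were lower and 4 higher, beside 31.6% and 32.8% of all genes tested, and the median was −0.14 on the log2 scale. The lectin chaperones CANX and CALR both fell by 0.46 on the log2 scale, CANX from 814 ± 4.59 to 592 ± 13.8 CPM and CALR from 1750 ± 27.9 to 1276 ± 19.2 CPM. PDIA3, the disulphide isomerase that partners tapasin in the loading complex, fell by 0.25, and the translocon gene SEC61A1 by 0.38. TAPBPL, a tapasin relative that edits peptides outside the loading complex, rose from 2.97 ± 0.0709 to 4.42 ± 0.326 CPM. The trimming peptidase ERAP1 rose by 0.11, the related peptidase LNPEP by 0.24 and the glucosidase subunit GANAB by 0.09. TAP1 rose by 0.53, and TAP2 and TAPBP by only 0.18 and 0.14, the TAP2 call being lost without POLK sgRNA library 1. Calnexin, calreticulin and PDIA3, which serve many other glycoproteins, fell (edgeR adjusted p of 3.5e-12 or less for each of these 3).

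Inducible proteasome subunits, which favour peptides that fit class I, were split. PSMB9, which shares a promoter region with TAP1, rose from 16.9 ± 0.547 to 25.6 ± 0.537 CPM (log2 fold change 0.60, edgeR adjusted p = 1.1e-13), close to the 0.53 of TAP1. PSMB8, beside it, rose from 35.2 ± 0.936 to 43.2 ± 0.49 CPM (0.29), and the activator subunit PSME1 by 0.31. PSMB10, the remaining inducible subunit, fell from 3.84 ± 0.189 to 3 ± 0.311 CPM (−0.35) and lies on chromosome 16, where its 68 neighbours had a median of −0.42. The activator gene PSME3 and the cytosolic peptidases TPP2 and LAP3, which trim or destroy peptides, fell by 0.16 to 0.17, and the peptidase NRDC rose by 0.10. Of the 13 genes in this list, 4 rose and 5 fell, so that 69.2% were called, beside 64.3% of all genes tested.

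Factors that bind class I promoters were called in 7 of 14 cases, or 50%, which is below the 64.3% of all genes tested. Of these 14 genes, 6 rose, 1 fell and 7 did not pass, with a median of 0.09. ATF1, which binds cyclic AMP response elements, rose by 0.55 and the Y box subunit NFYB by 0.47, while the partner subunit NFYA fell from 51.7 ± 1.84 to 43.5 ± 0.789 CPM (−0.25). RFX5, the X box factor that recruits NLRC5, rose by 0.15. CIITA, the class II relative of NLRC5 that can also act at class I promoters, rose from 53.3 ± 3.42 to 63.5 ± 1.14 CPM (0.26, edgeR adjusted p = 4.1e-07). IRF1, an interferon-induced activator, was at 5.4 ± 0.611 and 5.57 ± 0.416 CPM and did not pass (log2 fold change 0.04, −0.14 to 0.22; adjusted p = 0.68), and the NF-kB subunit RELA was at 104 and 105 CPM. Both were named for their known role after their values had been seen.

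Interferon receptor and JAK-STAT genes gave 5 higher and 3 lower of 18, with a median of 0.01. The share called was 44.4%, below the 64.3% of all genes tested. STAT2, which carries type I interferon signals, rose from 27.5 ± 0.895 to 42.6 ± 0.559 CPM (0.63), the phosphatase gene PTPN11 rose by 0.48, the kinase TYK2 by 0.24 and the receptor chain IFNAR2 by 0.16. The feedback inhibitor SOCS3 fell by 0.41, STAT3 by 0.24 and the interferon gamma receptor chain IFNGR1 by 0.19.

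Chromosome 12 holds 7 of the 42 genes that the naming rule took from these lists, and all 7 rose, as did 24 of the 42. Around ATF1, NFYB, STAT2, PTPN11, MARCH9 and SPPL3 the neighbours' median log2 fold change was 0.50 to 0.68, so these genes and their surroundings were higher alike. TAPBPL was the exception, with a neighbours' median of −0.01.

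Class I-like genes, whose products share the heavy chain fold, were higher in 7 and lower in 3 of 13 tested, with a median of 0.39. The share called was 76.9%, beside 64.3% of all genes tested. The count of class I-like genes that rose was 6 in DESeq2 and in limma-voom, and 5 to 7 with a library left out. AZGP1, a secreted lipid-binding relative, rose from 6.01 ± 0.593 to 14.4 ± 0.367 CPM (1.25) and PROCR, the protein C receptor gene, from 25.6 ± 0.348 to 42.3 ± 1.11 CPM (0.72, beside a neighbours' median of 0.28). HFE, which regulates iron uptake and binds beta-2-microglobulin, rose by 0.60, as did HLA-G, which was low (1.02 ± 0.366 and 1.55 ± 0.293 CPM) and whose groups overlapped. MICA and MICB, stress ligands of NKG2D that lie beside HLA-B, went the opposite way and fell by 0.30 and 0.24, MICA from 18.5 ± 0.294 to 15.1 ± 0.64 CPM. Among the other NKG2D ligand genes of the list, ULBP2 rose by 0.54 on the log2 scale (7.13 ± 0.437 to 10.5 ± 0.753 CPM). RAET1E rose by 0.39 (edgeR adjusted p = 0.043) and RAET1G by 1.18, the latter at means under 1 CPM. ULBP3 was at 4.2 and 3.81 CPM and did not pass (log2 fold change −0.15, edgeR adjusted p = 0.17). These were named after their values had been seen. A pair of listed genes, ULBP1 and RAET1L, had too few counts to test.

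Genes that remove, silence or mask class I gave 5 higher and 6 lower of 17. The share called, 64.7%, was close to the 64.3% of all genes tested. The ligase gene MARCH9, which directs class I to lysosomes, rose by 0.69, the intramembrane proteases SPPL3 and HM13 by 0.61 and 0.57, and the Polycomb subunit EED by 0.12. WWP2 and TMEM127, a ligase and its adaptor that mark class I for degradation, fell by 0.37 and 0.31, and the demethylase KDM1A by 0.19. WWP2 lies on chromosome 16 with a neighbours' median of −0.44, and the neighbours of HM13 on chromosome 20 had 0.60.

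The genes whose profile over the 6 libraries was nearest to the median member were ABCC10, AMDHD2, TBX6, LYSMD1 and NR2C2AP, by Euclidean distance between log2 levels centred on the control mean. Their distances were 0.0359 to 0.0652, and their log2 fold changes were 0.36 to 0.39, beside 0.39 for HLA-E and HLA-F. The 6 points share 2 groups, so genes with a like group difference come out as near.

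Melanocyte and melanoma markers were abundant in every library, with a summed level of 2358 to 2383 CPM in control and 2770 to 2844 CPM in POLK sgRNA libraries, led by SOX10, CSPG4 and ERBB3. The pigment genes TYR, MLANA, PMEL and DCT were at means under 1 CPM. Leukocytes, which carry much class I, had 9 of 12 listed markers in the table, and 6 of these had a mean under 1 CPM. Of these 6, PTPRC, CD3E and MS4A1 were at 0.0269, 0.013 and 0.00778 CPM in control and 0.0311, 0.00712 and 0.00712 CPM in POLK sgRNA libraries. CD14, another of the 6, fell from 0.354 to 0.0917 CPM (log2 fold change −1.91), while LYZ, CD68 and HLA-DRA rose. HLA-DRA alone was at 272 and 359 CPM. Without it the leukocyte sum was 17.9 to 18.2 and 58.4 to 60.4 CPM, mostly from CD68 (14 and 39.3 CPM) and LYZ (3.42 and 19.7 CPM), and its part in the members' differences was not tested. Fibroblast and endothelial markers summed to 16.7 to 16.9 and 29.1 to 29.4 CPM, of which PDGFRB made up 10.6 and 16.7 CPM. Single markers of that list went different ways: LUM rose from 0.423 to 4.5 CPM and DCN from 0.0902 to 1.11 CPM, CDH5 fell from 0.361 to 0.0343 CPM, and COL1A1 was at 3.84 and 4.34 CPM and did not pass.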

How the data were processed

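Trimmomatic, STAR, FastQC, DESeq2 and the build GRCh38 are named in the submitters' processing notes. For the counter, annotation release and tool versions, the sources used here give nothing. Per the labels' protocols, libraries were prepared by TruSeq RNA V2, an unstranded mRNA kit. The authors deposited raw counts per gene, 1 column for each library. Columns were matched to samples by name and grouped by sgRNA.

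Counts were analysed in R 4.3.3 with edgeR 4.0.16: filterByExpr (minimum count 10, minimum total 15), TMM scaling, and the two-sided quasi-likelihood F test (robust, no covariates) over 13930 genes, with Benjamini-Hochberg adjustment and a threshold of 0.05. Each standard error was derived from the log2 fold change and its F statistic. CPM use TMM-scaled library sizes. Libraries of a group differed by more than sampling noise (chi-square per degree of freedom 1.98 to 4.02 within groups, 63.2 to 76.2 between). Positions and transcript lengths came from GENCODE 29 and promoters from RefSeq (7 of 9 members matched).

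The members and lists were chosen with earlier results of these data known. Named from each list were up to 4 genes in each direction with the largest log2 fold change among those called with a mean of at least 1 CPM; nearness used a pseudocount of 0.1. Not every gene that this rule takes is reported here. Alternatives were other scalings and filters, a replicate block, DESeq2 1.42.0, limma-voom (limma 3.58.1), each library left out, and neighbour windows.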

Additional observations from a re-analysis of the deposited data

How the results depend on the processing

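HLA-B, HLA-C, HLA-E, HLA-F, TAP1 and TAPBP kept direction and call under all 13 alternative fits. With a library left out, B2M ranged from −0.06 to −0.02 on the log2 scale, TAP2 from 0.13 to 0.22 and NLRC5 from −0.16 to −0.11; NLRC5 was −0.15 in DESeq2. The count of members that fell was 0 in DESeq2 and 0 to 1 with a library left out, that of members that rose 6 to 7, and promoter factors that fell numbered 1 to 2. Set against the median of neighbours within 2 Mb, the values were 0.75 for HLA-B, 0.62 for HLA-C, 0.34 for HLA-E, 0.40 for TAP1, 0.05 for TAP2, 0.01 for TAPBP, 0.02 for B2M and 0.28 for NLRC5. The sign changed for B2M and NLRC5, whose neighbours' medians of −0.06 and −0.42 lay below their own values. With 5 Mb the neighbours' median was 0.09 for HLA-C, 0.10 for HLA-E and HLA-F, 0.07 for TAP1 and TAP2 and 0.08 for TAPBP. Replicate numbers did not pair the libraries (correlations of same-numbered libraries −0.0419 to −0.00682); with the replicate number as a block 7 members rose and 1 fell, HLA-B had 0.87 and NLRC5 −0.14. Depth limits HLA-F most, with 183 to 306 counts a library.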
